A study of Rattus norvegicus and Mus musculus with 34 samples.

Results

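A set of 10 genes of blood vessel growth and of the endothelium was followed in the healing tissue of a rat mandibular bone defect, with the sensory nerve intact or transected. The genes were taken by symbol from the 20022 genes of the count tables. They were the growth factor gene Vegfa (gene ID 83785) with the receptor genes Kdr (25589) and Flt1 (54251), the angiopoietin genes Angpt1 (89807) and Angpt2 (89805) with their receptor gene Tek (89804), the endothelial surface genes Pecam1 (29583), Cdh5 (307618) and Emcn (295490), and the hypoxia factor gene Hif1a (29560). All 10 of the 10 passed the filter on low counts in every comparison, and the lowest count of any of them in any rat was 101 (Angpt2).

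There were 23 RNA-seq libraries of mixed cells from the periodontal healing tissue of wild-type male Sprague-Dawley rats, each counted here as 1 rat. In the sensory nerve- groups a segment of the inferior alveolar nerve, which carries sensation from the mandible, was removed in the same operation that made the buccal bone defect, and the sensory nerve+ groups had the defect with the nerve intact. Rats were given penicillin after surgery, and rats with local infection had been left out by the authors. There were 3 rats in the sensory nerve+ group of day 3, and 4 rats in each of the other 5 groups (sensory nerve- at day 3, and both nerve states at days 7 and 14). Whether the nerve was exposed without transection in the sensory nerve+ rats is not given in the sources used here.

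New vessels grow when hypoxic or wounded tissue releases vascular endothelial growth factor A (VEGF-A, encoded by Vegfa). It acts on endothelial cells mainly through VEGF receptor 2 (Kdr), while VEGF receptor 1 (Flt1) binds the same ligand and often limits it. Angiopoietin 1 (Angpt1), made largely by cells around the vessel, activates the endothelial receptor Tie2 (Tek) and stabilises vessels, and angiopoietin 2 (Angpt2), made mostly by the endothelium itself, can counter it. Hypoxia-inducible factor 1 alpha (Hif1a) is controlled chiefly by breakdown of its protein in oxygen, so its mRNA gives a partial view of its activity. In healing bone, ingrowth of vessels accompanies mineralisation.

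The libraries held between 14854598 and 18742423 counts, and levels are given as CPM, counts scaled to a common library size, after TMM scaling, which adjusts for differences in library composition. Tissue makeup differed between rats. The 12 skeletal muscle genes of a list summed to between 24.7 and 519 CPM in the rats of day 3, to between 2838 and 45847 CPM at day 7 and to between 308 and 31492 CPM at day 14. The 6 erythroid genes took from 0.200% to 39.0% of a library's counts, and the highest share was that of sensory nerve- day 14 replicate 3, which also had the lowest scaling factor (0.50). All genes of these 2 lists were detected in every group. In bulk tissue, fewer cells of a type and less RNA per cell cannot be told apart. The sensory nerve- rats of day 7 came in a table of their own, so that neither transection at day 7 nor, in sensory nerve- rats, a difference of day 7 from day 3 or day 14 can be told apart from whatever set that table apart. The joint fits of day 7 include those rats.

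Promoter sequences of Hif1a, of Vegfa and of the glucose transporter gene Slc2a1, a classical target of HIF-1, are shown because Hif1a and many HIF targets were lower at later days while no change was called for Vegfa. They are the 250 bases before the transcription start in RefSeq on build GRCr8, plus strand, which is another build than the mRatBN7.2 of the count tables. Capitals mark ACGTG or its reverse complement CACGT, the core that HIF-1 is known to bind. The windows were chr6:98359648-98359897 for Hif1a, chr5:138002272-138002521 for Slc2a1 and chr9:22452604-22452853 for Vegfa.
Hif1a: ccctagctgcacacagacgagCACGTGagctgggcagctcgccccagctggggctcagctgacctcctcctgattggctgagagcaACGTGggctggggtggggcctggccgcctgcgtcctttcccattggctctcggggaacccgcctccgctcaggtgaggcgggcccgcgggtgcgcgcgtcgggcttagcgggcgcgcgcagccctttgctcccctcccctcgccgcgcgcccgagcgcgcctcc
Slc2a1: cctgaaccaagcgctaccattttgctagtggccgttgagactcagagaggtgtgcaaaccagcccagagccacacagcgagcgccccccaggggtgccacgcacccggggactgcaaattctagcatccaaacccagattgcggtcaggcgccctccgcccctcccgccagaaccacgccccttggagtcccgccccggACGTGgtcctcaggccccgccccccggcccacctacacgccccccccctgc
Vegfa: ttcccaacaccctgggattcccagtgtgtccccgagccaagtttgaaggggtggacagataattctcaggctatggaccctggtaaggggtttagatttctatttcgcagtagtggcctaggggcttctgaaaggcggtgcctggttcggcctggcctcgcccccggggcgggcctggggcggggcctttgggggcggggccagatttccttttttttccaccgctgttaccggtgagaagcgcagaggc
The Hif1a window held 3 matches over both strands, 2 of which overlap as CACGTG, and the Slc2a1 window held 1. The Vegfa window held 0, as did the other RefSeq window of this gene. Sites outside these 250 bases were not searched, so a window without the core does not show a gene without a HIF-1 site. The genes shown were picked with their changes known, so their windows cannot tell whether the core goes with a fall. The part of the core in the change of any gene was not tested. Of 33469 windows of the same length, 16.6% held the core. Windows were found for 5 of the 10 genes (Vegfa, Kdr, Flt1, Hif1a and Emcn), and Hif1a was the 1 with a match.

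The first question was whether transection of the sensory nerve moved the vascular genes. No change was called for any of the 10 genes at day 3, day 7 or day 14 (edgeR quasi-likelihood test, Benjamini-Hochberg adjusted p under 0.05). Of all genes tested, 0% were called at each day, out of 14695, 14716 and 14610 genes. At an unadjusted p under 0.05, 0 of the 10 genes passed at day 3, 0 at day 7 and 1, Angpt1, at day 14, where 0.83%, 1.46% and 9.32% of all tested genes passed, and DESeq2 called 0 of the 10 at each day. In none of the 10 did the sensory nerve+ and sensory nerve- rats have separate ranges at any day, which 1.61%, 0.775% and 3.35% of all tested genes had. Over the 3 days, in a model of nerve state and day, 0 of the 10 genes were called by edgeR and 0 by DESeq2, where 0% of 15858 genes were called, and 0 of the 10 had an unadjusted p under 0.05, which 5.11% of all tested genes had. The median log2 fold change of the 10 genes in that model was 0.10, beside 0.00 over all genes tested.

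**Figure D1:**
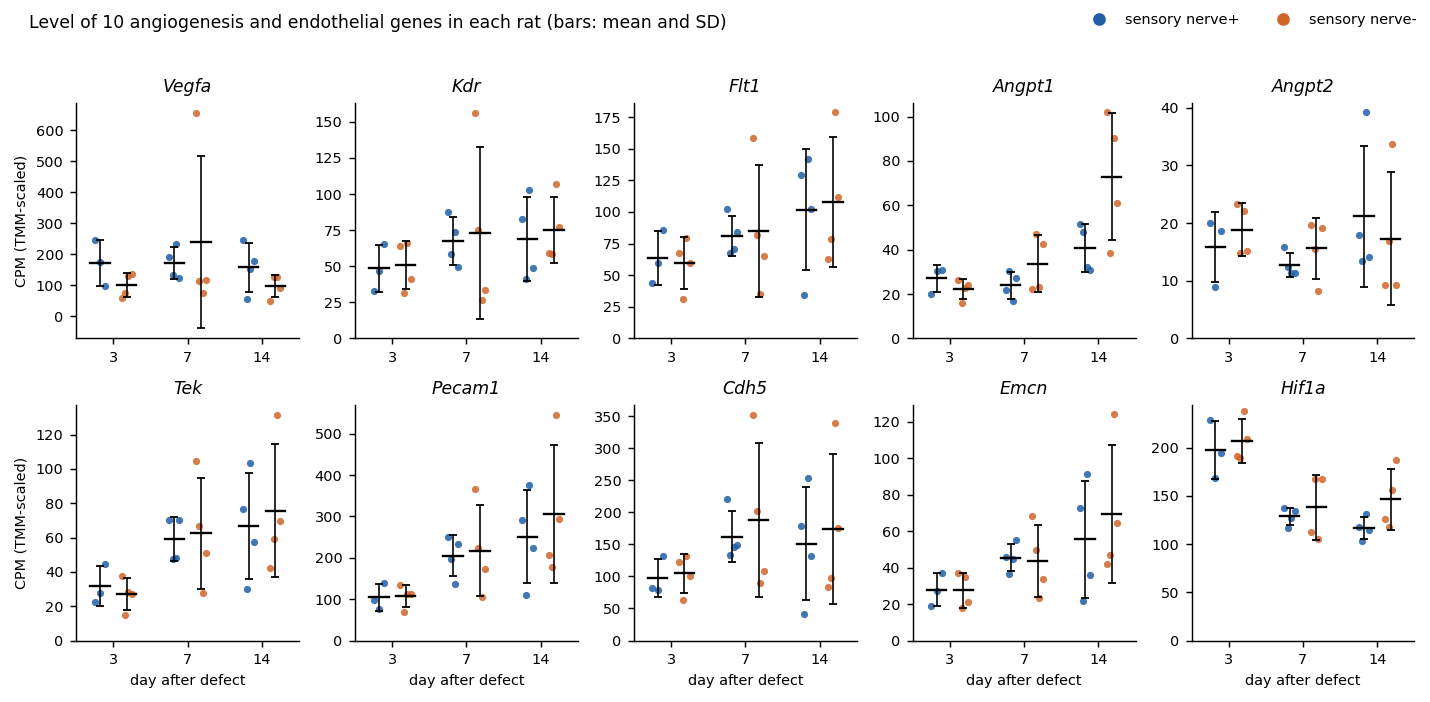
Level of each of the 10 genes in each rat, in TMM-scaled CPM, by day after the defect on the x axis and by nerve state. Points are rats, with the group mean and its SD; the rats of the 2 nerve states overlap in every panel at every day, and the highest point of the Vegfa panel is sensory nerve- day 7 replicate 1 at 655 CPM.

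The VEGF ligand gene showed the widest range. In sensory nerve+ rats Vegfa stood at 245.0, 175 and 96.7 CPM at day 3, at 192, 135, 234 and 124 CPM at day 7, and at 247, 55.9, 151 and 179 CPM at day 14. In sensory nerve- rats it stood at 58.6, 77.2, 130 and 137 CPM at day 3, at 655, 114, 75.5 and 118 CPM at day 7, and at 50.8, 126, 127 and 93.2 CPM at day 14. The sensory nerve- rats lay low within or below the range of the sensory nerve+ rats at days 3 and 14, and at day 7 replicate 1 lay far above every other rat. The log2 fold change of Vegfa with transection was -0.78 ± 0.41 (SE) at day 3, 0.47 ± 0.67 at day 7 and -0.67 ± 0.46 at day 14, none of them called. Without sensory nerve- day 7 replicate 1 the day-7 value was -0.76 (adjusted p = 0.458). Over the 3 days it was -0.30, with a 95% confidence interval from -1.03 to 0.42.

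The muscle genes of that rat were also the highest of the 23, at 45847 CPM summed against 2838 to 9347 CPM in the other 3 rats of its group. Across the 23 rats, deviations of Vegfa from its group mean on the log2 scale went with those of the muscle list (Pearson r = 0.625, adjusted permutation p = 0.0167, and Spearman rho = 0.564, adjusted permutation p = 0.0214, over 6 relations tested). Without the 2 rats farthest from the median of Vegfa, sensory nerve- day 7 replicate 1 and sensory nerve+ day 14 replicate 2, r was 0.288 (adjusted permutation p = 0.413), so the relation rests on those rats. The deviations of Vegfa and Hif1a had r = 0.078 and rho = 0.167 (adjusted permutation p = 0.876 and 0.544), and r = 0.378 (adjusted permutation p = 0.223) without the same 2 rats. As a description, the 5 genes of 14528 whose deviations were most like those of Vegfa were Zfp667 (r = 0.932), the fatty acid oxidation genes Acadvl (r = 0.851) and Etfa (r = 0.838), the lipoprotein receptor gene Vldlr (r = 0.839) and the kinase gene Map3k20 (r = 0.836).

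The VEGF receptor genes showed no such spread. Kdr ranged from 26.8 to 156 CPM and Flt1 from 31.1 to 179 CPM over all rats, and sensory nerve- day 7 replicate 1 was again the highest rat for Kdr. With transection over the 3 days Kdr changed by 0.11 on the log2 scale (95% confidence interval -0.41 to 0.63) and Flt1 by 0.03 (-0.49 to 0.55). The Flt1 to Kdr ratio of CPM, which library scaling does not affect and which is not a ratio of molecules, had group means between 1.17 and 1.47. Its mean log2 difference with transection was -0.04 (two-sided exact permutation test within days, p = 0.801, adjusted over 4 ratio tests p = 0.843). Deviations of Vegfa and Kdr had r = 0.579 and rho = 0.356 (adjusted permutation p = 0.0597 and 0.215), and r = 0.0977 without the 2 rats named above.

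**Figure D2:**
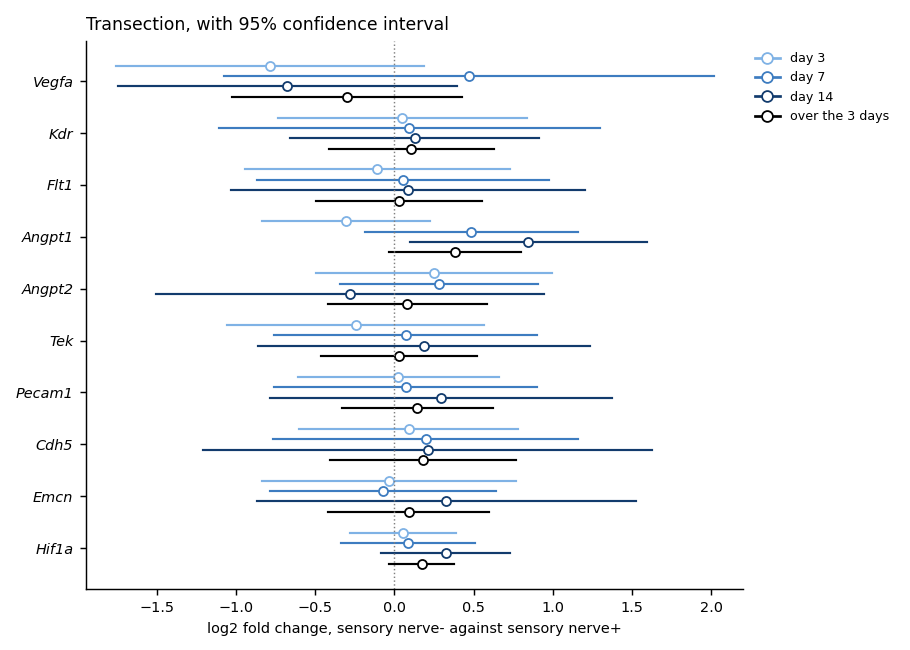
Log2 fold change of each gene with transection, sensory nerve- against sensory nerve+, at days 3, 7 and 14 and over the 3 days, with 95% confidence intervals from the edgeR fits. All markers are open because no adjusted p was under 0.05; every interval over the 3 days includes 0, and Angpt1 at day 14 is the 1 interval that does not (0.10 to 1.59).

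Among the angiopoietins, Angpt1 came nearest to a difference with transection. At day 14 it stood at 51.6, 48.0, 32.2 and 30.8 CPM in sensory nerve+ rats and at 102, 38.5, 90.3 and 61.0 CPM in sensory nerve- rats. In 3 of the 4 sensory nerve- rats it was above the highest sensory nerve+ rat, and the ranges overlapped through replicate 2. The log2 fold change was 0.84 ± 0.33 (SE), with an unadjusted p of 0.0314 and an adjusted p of 0.519 (edgeR), against -0.31 ± 0.22 at day 3 and 0.49 ± 0.29 at day 7. Over the 3 days it was 0.38 (95% confidence interval -0.03 to 0.80, adjusted p = 0.860). A test of whether the effect of transection differed between the days gave an adjusted p of 0.998 for Angpt1, and 0 of the 10 genes were called in it, by edgeR or DESeq2, where 0% of 15858 genes were called, and 0 of the 10 had an unadjusted p under 0.05, which 3% of all tested genes had.

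Scaling bears on the day-14 values. With library totals in place of TMM, the log2 fold changes of that comparison moved down by about 0.51, Angpt1 stood at 0.26 (adjusted p = 0.713), and Kdr, Flt1, Tek, Pecam1, Cdh5, Emcn and Hif1a turned from positive to negative values, none of them called. The erythroid genes took a median of 23.1% of the counts in these sensory nerve- rats and of 9.37% in the sensory nerve+ rats. Deviations of Angpt1 from its group means had r = 0.547 with those of the erythroid list over the 23 rats, given as a description. The part of erythroid content in the result was not tested.

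Angpt2 and Tek gave smaller values. Angpt2 ranged from 8.26 to 39.2 CPM over all rats and changed by 0.08 on the log2 scale with transection over the 3 days (95% confidence interval -0.42 to 0.58), and Tek changed by 0.03 (-0.47 to 0.52). The Angpt2 to Angpt1 ratio of CPM had a mean of 0.629 ± 0.353 (SD, n = 3) in sensory nerve+ and 0.852 ± 0.153 (SD, n = 4) in sensory nerve- rats at day 3. At day 14 it was 0.576 ± 0.434 and 0.264 ± 0.169 (SD, n = 4 each). Sensory nerve+ replicate 3 had the highest day-14 ratio, 1.22 beside 0.281 to 0.457 in the other 3 rats of its group, whose mean was 0.362. The mean log2 difference with transection within days was -0.26 (two-sided exact permutation test, p = 0.461, adjusted p = 0.843). Between day 3 and day 14 the log2 ratio differed by -1.07 over both nerve states. A permutation test of any difference among the 3 days, not of that pair alone, gave p = 0.0405 (adjusted p = 0.162). It did not pass the adjustment over the 4 ratio tests. For Flt1 to Kdr the difference between day 3 and day 14 was 0.16, and the permutation test over the 3 days gave an adjusted p of 0.843.

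The endothelial surface genes and Hif1a had intervals around 0. With transection over the 3 days Pecam1, an adhesion molecule of endothelial contacts that platelets and leukocytes also carry, changed by 0.14 on the log2 scale (95% confidence interval -0.33 to 0.62). Cdh5, the VE-cadherin of endothelial junctions, changed by 0.18 (-0.41 to 0.77), and Emcn, a sialomucin of capillary and venous endothelium, by 0.09 (-0.42 to 0.60). Hif1a changed by 0.17 (-0.03 to 0.38). These intervals leave room for changes of about the size of their bounds, so they do not show that the nerve states are alike.

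No gene of the other vascular lists was called with transection at any day. In the 19 measured endothelial identity genes the median log2 fold change was -0.03 at day 3, 0.07 at day 7 and 0.31 at day 14. At day 14, 19 of 19 had positive values, as did 53.4% of all tested genes, and 0 of the 19 had an unadjusted p under 0.05. With library totals all genes of that comparison moved down by the shift given above.

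The larger differences were between the days of healing. From day 3 to day 14 Pecam1, Tek, Angpt1 and Emcn were called higher in sensory nerve- rats, and Hif1a was called lower in sensory nerve+ rats. The log2 fold change of each had the same sign in the other nerve state. A call in 1 nerve state alone does not show a difference between the states, and none of the 10 genes was called in the test of that difference. Of the 10 genes, 4 were called higher and 0 lower in sensory nerve- rats, where 23.5% of 14449 tested genes were called and 8.89% were called higher. With library totals, or without any 1 rat of day 3, Angpt1 was the 1 gene of the 10 called there. In sensory nerve+ rats 1 of 10 was called, Hif1a, where 5.78% of 15065 tested genes were called and 3.09% were called lower. With both nerve states in 1 fit of 23 rats, added after the data had been seen, 6 of 10 were called: Flt1, Pecam1, Tek, Angpt1 and Emcn rose and Hif1a fell. In that joint fit 41.1% of all tested genes were called, 20% higher and 21.1% lower. With library totals in place of TMM the higher share of all calls moved from 46.6% to 65.4% in sensory nerve+ rats, from 37.8% to 26% in sensory nerve- rats and from 48.6% to 35.9% in the joint fit. Ranges of day 3 and day 14 were separate for 2 of the 10 genes in sensory nerve+ rats (Hif1a and Angpt1) and for 5 in sensory nerve- rats (Pecam1, Tek, Angpt1, Emcn and Hif1a), as for 24.6% and 26.7% of all tested genes. With library totals the ranges of Angpt1 in sensory nerve+ and of Tek and Emcn in sensory nerve- rats overlapped. With TMM the median log2 fold change of the 10 genes was 0.63 in sensory nerve+ and 0.77 in sensory nerve- rats, beside 0.00 and -0.05 over all genes tested.

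**Figure D3:**
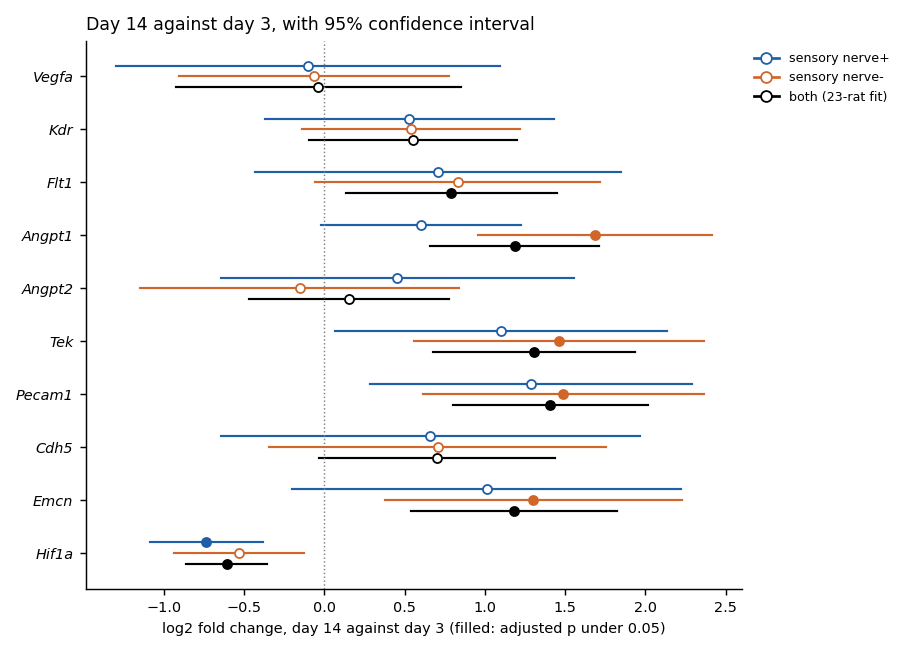
Log2 fold change of each gene at day 14 against day 3 in sensory nerve+ rats, in sensory nerve- rats and in the fit of all 23 rats, with 95% confidence intervals. Filled markers have an adjusted p under 0.05 (edgeR), which are Hif1a in sensory nerve+, Pecam1, Tek, Angpt1 and Emcn in sensory nerve-, and 6 genes in the fit of all rats.

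At day 3 Pecam1 stood at 98.4, 75.1 and 140 CPM with the nerve intact and at 133, 69.4, 113 and 113 CPM after transection. At day 14 it stood at 290.4, 111, 377 and 224 CPM in sensory nerve+ and at 207, 178, 546 and 293 CPM in sensory nerve- rats. All 4 sensory nerve- rats of day 14 lay above all 4 of day 3, as did 3 of the 4 sensory nerve+ rats, with replicate 2 within the day-3 range. The log2 fold change was 1.29 ± 0.43 (SE, adjusted p = 0.105) in sensory nerve+ and 1.49 ± 0.38 (adjusted p = 0.0271) in sensory nerve- rats. Without sensory nerve- day 14 replicate 3, the rat of the highest erythroid share, the latter was 1.03 (adjusted p = 0.0393). Without sensory nerve+ day 14 replicate 2, Flt1, Pecam1, Tek and Hif1a were called in the sensory nerve+ rats.

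Tek stood at 22.6, 27.5 and 44.7 CPM in sensory nerve+ and at 37.6, 15, 28.4 and 27.2 CPM in sensory nerve- rats at day 3. At day 14 the values were 76.4, 30.2, 103 and 57.3 CPM in sensory nerve+ and 42.5, 59.1, 132 and 69.7 CPM in sensory nerve- rats. The 4 sensory nerve- rats of day 14 again lay above those of day 3, though not with library totals (35.2 against 36.1 CPM). The sensory nerve+ ranges overlapped. The log2 fold change was 1.10 ± 0.44 (SE, adjusted p = 0.157) in sensory nerve+ and 1.46 ± 0.39 (adjusted p = 0.0320) in sensory nerve- rats. Without sensory nerve- day 14 replicate 3 the latter was 1.04 (adjusted p = 0.0592).

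Emcn had group means of 27.8 ± 8.98 CPM (SD, n = 3) and 27.5 ± 9.71 CPM (SD, n = 4) at day 3, in sensory nerve+ and sensory nerve- rats. At day 14 the means were 55.4 ± 32.1 CPM and 69.2 ± 37.7 CPM (SD, n = 4 each). The sensory nerve+ ranges of the days overlapped. The sensory nerve- ranges did so only with library totals (up to 39.9 CPM at day 3, from 34.5 CPM at day 14). The log2 fold changes were 1.01 ± 0.51 (SE, adjusted p = 0.244) and 1.3 ± 0.40 (adjusted p = 0.0499), and the latter was 0.84 (adjusted p = 0.0968) without sensory nerve- day 14 replicate 3. Cdh5 and Kdr had smaller values. In the joint fit Cdh5 changed by 0.70 (95% confidence interval -0.03 to 1.44, adjusted p = 0.117) and Kdr by 0.55 (-0.09 to 1.2, adjusted p = 0.161), while Flt1 rose by 0.79 (0.14 to 1.45, adjusted p = 0.0498) but passed the threshold in 7 of the 23 fits that left out 1 rat, with an adjusted p of 0.153 without sensory nerve- day 14 replicate 3.

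Angpt1 stood at 20.2, 30.5 and 30.7 CPM in sensory nerve+ and at 26.4, 16.1, 22.6 and 24.1 CPM in sensory nerve- rats at day 3. With the day-14 values given above, all rats of day 14 lay above all rats of day 3, although the lowest sensory nerve+ rat did so by a small margin (30.8 against 30.7 CPM). With library totals the sensory nerve+ rats of the 2 days overlapped (up to 35.6 CPM at day 3, from 30.3 CPM at day 14). With TMM, separation of day 3 and day 14 over both nerve states was found in 10.3% of all tested genes. The log2 fold change was 0.60 ± 0.26 (SE, adjusted p = 0.189) in sensory nerve+ and 1.69 ± 0.32 (adjusted p = 0.0105) in sensory nerve- rats. In all 8 fits that left out 1 rat the sensory nerve- value, from 1.47 to 1.90, passed the threshold. That the change was called in the sensory nerve- rats alone does not show a difference between the nerve states, since the test of that difference was not passed. From day 7 to day 14 the fold changes of Angpt1 were 0.79 ± 0.24 (SE, adjusted p = 0.439) and 1.13 ± 0.37 (adjusted p = 0.140).

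Hif1a stood at 229, 169 and 195 CPM in sensory nerve+ and at 191, 189, 238 and 209 CPM in sensory nerve- rats at day 3. By day 7 it was at 138, 117, 127 and 134 CPM in sensory nerve+ and at 112, 167, 105 and 168 CPM in sensory nerve- rats, so that all 8 rats of day 7 lay below all 7 of day 3, a separation found in 10.2% of all tested genes. At day 14 it was at 118, 104, 131 and 114 CPM and at 126, 117, 156 and 187 CPM, and each nerve state lay below its own day-3 rats. The log2 fold change from day 3 to day 14 was -0.73 ± 0.15 (SE, adjusted p = 0.0423) in sensory nerve+ and -0.53 ± 0.18 (adjusted p = 0.0609) in sensory nerve- rats, and -0.61 ± 0.12 (adjusted p = 0.000558) in the joint fit. The sensory nerve- value was called with all 23 rats in 1 fit (-0.48, adjusted p = 0.0410) and without sensory nerve- day 14 replicate 4 (-0.66, adjusted p = 0.0438), and in none of the other 7 fits that left out 1 rat. In 6 of the 7 fits that left out 1 rat, all but that without sensory nerve+ day 14 replicate 2, the sensory nerve+ value was no longer called, and it ran from -0.82 to -0.63. From day 7 to day 14 Hif1a changed by -0.02 ± 0.12 (adjusted p = 0.916) in the joint fit.

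From day 3 to day 7, 0 of the 10 genes were called in either nerve state taken alone, where 6.67% of all tested genes were called in sensory nerve+ and 10.5% in sensory nerve- rats. With library totals the higher share of all calls moved from 73.2% to 87.6% in sensory nerve+ rats, from 35.2% to 30.1% in sensory nerve- rats and from 50% to 60.7% in the joint fit. At an unadjusted p under 0.05, 5 and 3 of the 10 passed, as did 24.8% and 28.8% of all tested genes. DESeq2 called 5 (Pecam1, Cdh5, Tek, Hif1a and Emcn) and 3 (Pecam1, Tek and Hif1a). In the joint fit 3 of 10 were called, where 29.8% of all tested genes were called: Pecam1 at 1.01 ± 0.29 (SE, adjusted p = 0.0118), Tek at 1.07 ± 0.30 (adjusted p = 0.01) and Hif1a at -0.59 ± 0.12 (adjusted p = 0.00119).

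From day 7 to day 14, 0 of 10 were called in either nerve state, where 0.0202% of all tested genes were called in sensory nerve+ and 0.0138% in sensory nerve- rats. Angpt1 was the 1 of 10 with an unadjusted p under 0.05 in each, where 9.42% and 23.5% of all tested genes passed, and DESeq2 called 0 of 10 in sensory nerve+ and Angpt1 in sensory nerve- rats. In the joint fit Angpt1 was the 1 gene of the 10 called, at 0.96 ± 0.24 (SE, adjusted p = 0.0141), where 14% of all tested genes were called.

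Muscle content moved with day as well. The muscle list took at most 0.0533% of the counts of any day-3 rat, medians at day 7 of 1.92% with the nerve intact and 0.802% after transection, and medians at day 14 of 2.01% and 0.117%. Deviations of Cdh5 from its group means had r = 0.661 with those of the muscle list over the 23 rats, those of Angpt1 had r = -0.220 and those of Hif1a r = -0.0147, as a description. Pecam1 and Tek had r = 0.646 and 0.586 with the muscle list. Sensory nerve+ day 14 replicate 2 had the lowest deviations of the 23 rats for Cdh5 (-1.60), Pecam1 (-1.04) and the muscle list (-4.55). Sensory nerve- day 14 replicate 3 had the highest (1.19, 0.98 and 2.87). No r with muscle without these rats is given here for the endothelial genes, so how far it rests on them is not known. The 7 macrophage markers had a median sum of 1868 CPM at day 3 (range 1030 to 2096) and 691 CPM at day 14 (499 to 1107) in sensory nerve+ rats, and of 1675 CPM (1059 to 2263) and 1382 CPM (661 to 1574) in sensory nerve- rats. Deviations of Kdr, Emcn, Flt1 and Cdh5 had r of -0.637, -0.632, -0.548 and -0.535 with those of the macrophage list. The 6 neutrophil markers went from a median sum of 190.2 to 939 CPM with the nerve intact and from 121 to 833 CPM after transection, and the 6 Schwann cell markers from 110.2 to 822 CPM and from 99.7 to 183 CPM. The 6 oral epithelium markers went from 412 to 6.79 CPM and from 173 to 3.95 CPM, and the 6 tooth markers from 3803 to 0.287 CPM and from 156 to 0.222 CPM, with the epithelial gene Krt13 at 0 in both groups of day 3 and in the sensory nerve- groups of days 7 and 14. These sums spread widely within groups. At day 3 the tooth sum ran from 4.66 to 23087 CPM in sensory nerve+ and from 5.49 to 11714 CPM in sensory nerve- rats. The oral epithelium sum of day 3 ran from 1.97 to 832 CPM and from 33.7 to 500 CPM. At day 14 the neutrophil sum ran from 78.2 to 5625 CPM and from 143 to 4256 CPM, and the tooth sum reached 145 CPM in sensory nerve- rats. The part of tissue makeup in the differences between days was not tested.

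The endothelial genes varied together from rat to rat within groups. Deviations of Cdh5 and Pecam1 had r = 0.940 and rho = 0.936, and those of Cdh5 and Emcn had r = 0.925 and rho = 0.915, over 23 rats. The adjusted permutation p was 3e-05 for each, and the unadjusted p of 1e-05 is the smallest that 100000 resamples can give. Without the 2 rats farthest from the median of Cdh5, sensory nerve+ day 14 replicate 2 and sensory nerve- day 14 replicate 3, r was 0.899 and 0.868. Angpt2 followed Cdh5 less closely (r = 0.664, rho = 0.621, adjusted permutation p = 0.0167 and 0.0214), and without those 2 rats r was 0.531 (adjusted permutation p = 0.0888), which did not pass the adjustment. Angpt1 and Hif1a stood apart in this description. Angpt1 had r between -0.415 (Vegfa) and 0.278 (Hif1a) with the other 9 genes, and Hif1a between 0.078 (Vegfa) and 0.411 (Pecam1). The genes most like Cdh5 among all 14528 were Podxl (r = 0.981), Cd34 (r = 0.970), Fzd4 (r = 0.960), Flt1 (r = 0.958) and Rasip1 (r = 0.957). Values of 1 rat share a library, a scaling factor and a tissue makeup, which these correlations include.

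**Figure D4:**
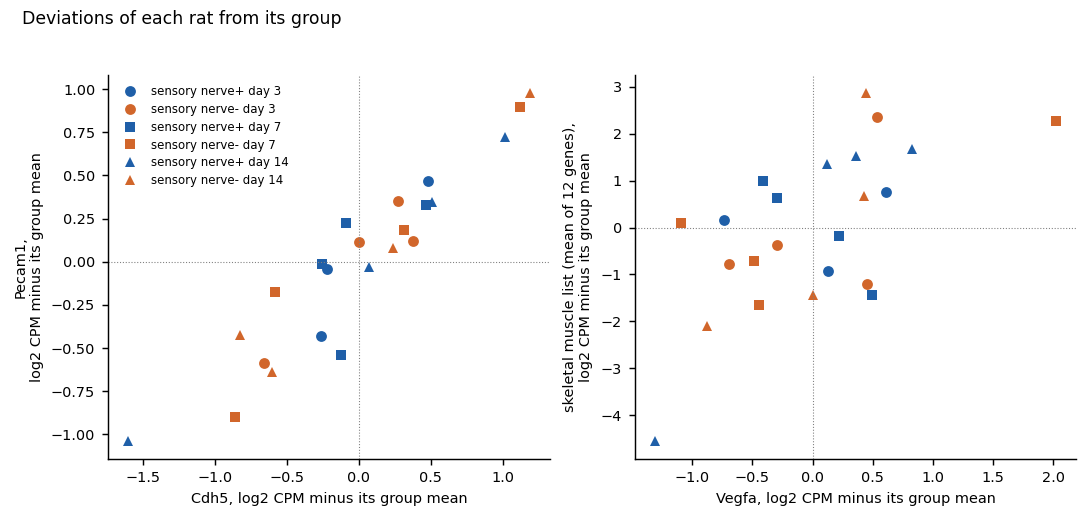
Deviation of each of the 23 rats from its group mean, in log2 CPM, for Cdh5 and Pecam1 and for Vegfa and the mean of 12 skeletal muscle genes. The Cdh5 and Pecam1 points lie along a line (r = 0.940), and the relation of Vegfa with muscle (r = 0.625) rests on the rats with the lowest and the highest Vegfa deviation.

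The wider vascular lists divided between the days. Among 19 endothelial identity genes, 9 rose and 0 fell from day 3 to day 14 in sensory nerve- rats, with a median log2 fold change of 1.13, where 8.89% of all tested genes were called higher. With library totals 1 of the 19, Clec14a, was called higher and the median was 0.68, and without 1 rat the count ran from 0, without day 3 replicate 2, to 8. The 3 with the smallest p were Icam2, an intercellular adhesion molecule (1.27 ± 0.29, SE, adjusted p = 0.0192), Clec14a, an endothelial lectin (2.05 ± 0.52, adjusted p = 0.0257), and S1pr1, a receptor of sphingosine 1-phosphate (1.43 ± 0.38, adjusted p = 0.0312). In sensory nerve+ rats 0 of 19 were called and the median was 0.83, with 6 at an unadjusted p under 0.05, as 28.2% of all tested genes had. Without sensory nerve+ day 14 replicate 2, 9 of the 19 were called higher there. At day 7 against day 3 the tight junction gene Cldn5 rose in both nerve states, by 1.92 ± 0.24 (adjusted p = 0.00784) in sensory nerve+ and 1.90 ± 0.45 (adjusted p = 0.0373) in sensory nerve- rats. The sensory nerve+ call of Cldn5 held in all 7 fits that left out 1 rat and the sensory nerve- call in 1 of 8. Of the 4 endothelial adhesion molecules, P-selectin (Selp), which platelets also carry, rose between day 3 and day 14 by 2.49 ± 0.49 (adjusted p = 0.0418) in sensory nerve+ and 3.01 ± 0.67 (adjusted p = 0.0175) in sensory nerve- rats. Vcam1 rose by 2.29 ± 0.41 (adjusted p = 0.0395) in sensory nerve+ rats, where 2.69% of all tested genes were called higher. Both sensory nerve+ calls held in 1 of the 7 fits that left out 1 rat, that without day 14 replicate 2, and were lost with the replicate block, under which no gene was called in that comparison.

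**Figure D5:**
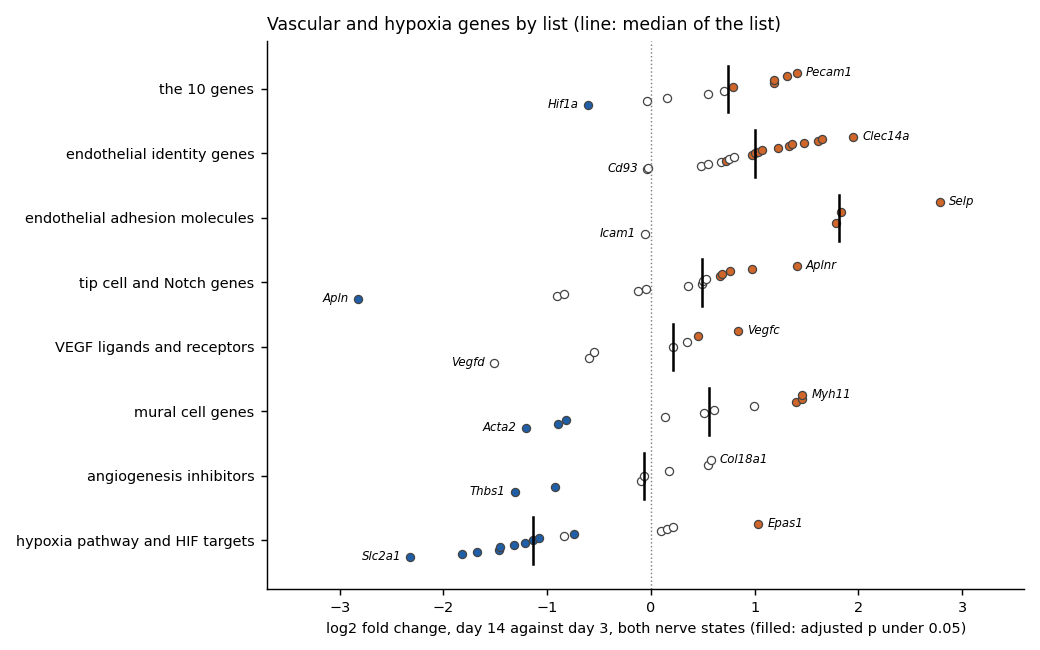
Log2 fold change from day 3 to day 14 in the fit of all 23 rats for the 10 genes and for 7 lists of vascular and hypoxia genes, 1 point a gene, with the lowest and highest gene of each list named and the median as a line. Filled points have an adjusted p under 0.05 (edgeR), with 12 of 19 endothelial identity genes higher (9 with library totals), and 10 lower and 1 higher (Epas1) of 15 hypoxia genes, beside 20% of all tested genes higher and 21.1% lower.

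Of 15 genes of the hypoxia pathway and HIF targets, 9 fell and 0 rose from day 3 to day 14 in sensory nerve- rats, and 3 fell and 0 rose in sensory nerve+ rats, where 14.6% and 3.09% of all tested genes were called lower. With library totals the counts of lower genes were 9 and 5, and without 1 rat they ran from 5 to 8 and from 0 to 4. The 0 was found without sensory nerve+ day 3 replicate 3 or day 14 replicate 1, 3 or 4. In sensory nerve+ rats these were Slc2a1, whose window is printed above (-2.82 ± 0.36, SE, adjusted p = 0.0258), the collagen hydroxylase gene P4ha1 (-2.36 ± 0.36, adjusted p = 0.0310) and the pyruvate dehydrogenase kinase gene Pdk1 (-1.78 ± 0.39, adjusted p = 0.0488). In sensory nerve- rats the smallest p were those of the glycolytic genes Ldha (-1.49 ± 0.23, adjusted p = 0.00517) and Pgk1 (-1.56 ± 0.28, adjusted p = 0.00846) and of the mitochondrial gene Higd1a (-1.19 ± 0.19, adjusted p = 0.00586). With the nerve intact, Slc2a1 ranged from 91.2 to 220.1 CPM at day 3 and from 16.1 to 25.3 CPM at day 14, with no overlap. The core ACGTG stood in the windows of 5 of the 13 listed genes that had one, Slc2a1, Ldha, Bnip3, Ankrd37 and Higd1a, beside 16.6% of all windows. P4ha1 and Pdk1, called lower with Slc2a1 in sensory nerve+ rats, had windows without the core, and no window was found for Pgk1. Vegfa, a HIF target in many tissues, changed from day 3 to day 14 by -0.10 ± 0.51 (SE, adjusted p = 0.918) in sensory nerve+ and -0.06 ± 0.37 (adjusted p = 0.919) in sensory nerve- rats.

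Apln, the gene of the peptide apelin and a marker of sprouting tip cells, fell in both nerve states at both later days. It stood at 34.1 to 79.4 CPM in sensory nerve+ and 26.6 to 82.0 CPM in sensory nerve- rats at day 3. At day 14 the ranges were 2.41 to 10.4 CPM and 7.66 to 11 CPM, below all day-3 rats. The log2 fold changes were -2.34 ± 0.47 (SE, adjusted p = 0.0325) and -2.55 ± 0.48 (adjusted p = 0.0195) by day 7, and -3.21 ± 0.59 (adjusted p = 0.0399) and -2.52 ± 0.37 (adjusted p = 0.00423) by day 14. The sensory nerve+ calls held in 2 and 1 of the 7 fits that left out 1 rat, and the sensory nerve- calls in 6 and 8 of 8. Of all tested genes, 6.67% in sensory nerve+ and 10.5% in sensory nerve- rats were called by day 7. By day 14, 3.09% and 14.6% were called lower. The summed level of the list did not show this fall: its 14 genes summed to a median of 566 CPM at day 3 and 565 CPM at day 14 in sensory nerve+ rats. In sensory nerve- rats the medians were 483 and 689 CPM. Such a sum includes Apln and follows its most abundant genes, so it does not show how each other gene of the list moved. In sensory nerve- rats Notch1, a receptor that restrains tip cells, rose by 0.73 ± 0.14 (adjusted p = 0.0104) and the arterial ligand gene Efnb2 by 1.06 ± 0.32 (adjusted p = 0.0459) by day 14, the other called genes of the 14 in that list. With library totals neither was called (adjusted p = 0.501 for Notch1 and 0.299 for Efnb2).

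In the Tie pathway, Ptprb, a phosphatase that acts on Tie2, rose by 1.92 ± 0.49 (SE, adjusted p = 0.0259) from day 3 to day 14 in sensory nerve- rats, and the adaptor gene Dok2, which blood cells also express, had a log2 fold change of -1.68 ± 0.38 (adjusted p = 0.0495) in sensory nerve+ rats. Neither call held under library totals (adjusted p = 0.0505 and 0.0591). Of the 7 other VEGF ligand and receptor genes 0 were called from day 3 to day 14 in either nerve state, and 1 in each had an unadjusted p under 0.05. In sensory nerve- rats this was Vegfc, the lymphatic growth factor, at 1.07 ± 0.37 (adjusted p = 0.0716). None of the 10 mural cell genes and none of the 7 angiogenesis inhibitors was called in either nerve state, with 3 and 2 mural genes and 1 and 2 inhibitors at an unadjusted p under 0.05 in sensory nerve+ and sensory nerve- rats, where 28.2% and 38.8% of all tested genes passed. Among the lymphatic genes Pdpn, which bone and stromal cells also express, fell in both, with log2 fold changes of -2.23 ± 0.45 (adjusted p = 0.0422) and -2.36 ± 0.51 (adjusted p = 0.0164). Its sensory nerve+ call was lost with the replicate block, under which no gene was called in that comparison.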

How the data were processed

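RNA-seq of healing tissue from 23 rats was used. The authors filtered reads, aligned them with HISAT to mRatBN7.2 (the submitters' processing notes also name Bowtie2) and deposited expected counts per gene, of which 38.5% were whole numbers to within 1e-06. The counting program is not given in the sources used here. The deposited tables held 19 and 4 rats.

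Expected counts were rounded and tested with edgeR 4.0.16 in R 4.3.3 (TMM, filterByExpr, quasi-likelihood test, Benjamini-Hochberg over all tested genes), each pair of groups alone. The effect of transection over the 3 days, the interaction with day and the joint day comparisons used all 23 rats. DESeq2 1.42.0, RLE size factors, library totals, no filter, a replicate block, 1 fit of all rats and leaving out each rat were the alternatives. Their use on the wider lists, and ratio means without 1 rat, were added after the data had been seen. Log2 CPM had 0.1 added. Ratios and relations were tested by permutation in Python 3.11.15. The test script was tested on simulated data. The 10 genes and all lists were chosen with earlier results of these data known. Of other lists at most 3 genes past the threshold are named per comparison, those with the smallest p, or else the 1 with the smallest p. The 5 genes most like Cdh5 and Vegfa are those of highest r. The labels number the libraries of a group but do not say outright that each is a separate animal, and p-values then measure only the spread between these samples, which may be technical. The macrophage samples of the series were not used here.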

Additional observations from a re-analysis of the deposited data

Results flagged for a closer look

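Of the 50 combinations of gene and group with 4 rats, 2 held a rat far from the others by Dixon's test, which chance gives in about 1 of 20. Vegfa was at 655 CPM in sensory nerve- day 7 replicate 1, beside 75.5 to 118 CPM in the other 3 rats of that group. Angpt2 was at 39.2 CPM in sensory nerve+ day 14 replicate 3, beside 13.5 to 17.9 CPM in the others.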

How the results depend on the processing

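None of the 10 genes was called with transection under any alternative or without any 1 rat, at any day, over the 3 days or in the test of the interaction. DESeq2 called 1 of all genes at day 7, 95 at day 14 and 1 over the 3 days, where edgeR called 0.

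Counts of called genes among the 10 moved between days of healing. For day 7 against day 3, sensory nerve+, the count was 0, with 5 under DESeq2, 1 (Hif1a) with all 23 rats in 1 fit, and 0 to 1 without 1 rat (Pecam1, without day 7 replicate 3). For day 14 against day 3, sensory nerve+, it was 1, with 2 under DESeq2, 0 with library totals, 0 without the filter, 0 with the replicate block and 0 to 4 without 1 rat. For day 7 against day 3, sensory nerve-, it was 0, with 3 under DESeq2 and 1 (Hif1a) with all 23 rats. For day 14 against day 3, sensory nerve-, it was 4, with 1 (Angpt1) under library totals and 1 to 4 without 1 rat, the 1 being Angpt1 when any rat of day 3 was left out. Without day 14 replicate 4 Angpt1 and Hif1a were called there, and with all 23 rats in 1 fit 5 genes were called, Hif1a among them. For day 14 against day 7, sensory nerve-, it was 0, with 1 (Angpt1) under DESeq2 and 1 with all 23 rats. In the joint fit the counts without 1 rat were 3 for day 7 against day 3, 5 to 7 for day 14 against day 3 and 1 for day 14 against day 7, and Flt1 was not called with library totals (adjusted p = 0.235), without the filter (0.0605) or with the block (0.0541). The cause was not tested.

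Counts over all genes moved as well. For day 7 against day 3, sensory nerve+, they were 1002, and 2808 under DESeq2, 579 with library totals, 122 with the block and 254 to 1547 without 1 rat. For day 14 against day 3, sensory nerve+, they were 871, and 3375 under DESeq2, 547 with library totals, 2606 with all 23 rats, 0 with the block and 0 to 3133 without 1 rat. For day 7 against day 3, sensory nerve-, they were 1524, and 3217 under DESeq2, 2287 with all 23 rats, 2 with the block and 0 to 1359 without 1 rat. For day 14 against day 3, sensory nerve-, they were 3396, and 1184 with library totals and 1620 to 4346 without 1 rat. For day 14 against day 7 they were 3 and 2 in the nerve states, and 325 and 1991 under DESeq2. In the joint fit library totals gave 2131 for day 7 against day 3, both nerve states, beside 4721, and 4291 for day 14 against day 3, both nerve states, beside 6514.

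Replicate numbers were not taken to pair the rats. In each of 9 pairs of groups at least 1 same-numbered pair had a correlation of deviations of 0.1 or less. This rule fails on 1 low pair, so it cannot exclude pairing. Between the nerve states at day 7, the 4 same-numbered pairs had r from 0.033 to 0.312. Their mean was 0.179, beside -0.063 for other numbers. With the replicate block Tek lost its call in sensory nerve- rats (adjusted p = 0.0546), which left 3 of 4, Emcn gained one at day 7 in the joint fit, and no count with transection changed. The relation of Cdh5 and Angpt2 was r = 0.531 without the 2 farthest rats and 0.568 to 0.732 without 1. That of Vegfa and the muscle list was 0.288 and 0.498 to 0.684, and that of Vegfa and Kdr 0.629 with library totals and 0.278 to 0.675 without 1. Library totals shifted the median gene by -0.51 in transection at day 14 and -0.48 in day 14 against day 3 of sensory nerve- rats. Groups of 3 or 4 rats limit what could be called.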
